A study of Mus musculus with 10 samples.

Results

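The apolipoprotein genes of the hepatocyte were followed through cells treated with palmitate (PA) or linoleate (LA), the saturated and the polyunsaturated free fatty acid (FFA) of the study. The set holds 10 named genes, Apoa1, Apoa2, Apoa4, Apoa5, Apob, Apoc1, Apoc3, Apoe, Apoh and Apom, out of 18055 genes listed in at least 1 library. All 10 were chosen with their values under PA and LA known, so the difference between these 2 groups is given as a description. Primary hepatocytes of C57BL/6 mice, isolated by collagenase perfusion and plated on collagen, were grown in DMEM with fetal bovine serum and moved to serum-free medium before treatment. The 5 groups, with 2 libraries each, were Vehicle (neither FFA nor NTP), PA (200 µM palmitate for 24 h), PA+NTP (NTP for 1 h, then 200 µM palmitate for 24 h), LA (12 µM linoleate for 24 h) and LA+NTP (NTP for 1 h, then 12 µM linoleate for 24 h). NTP is Neurotropin, a drug given for chronic pain. The age and sex of the mice are not stated, and no group received NTP alone. The FFAs were given at different doses, so the kind of fatty acid and its dose cannot be told apart.

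Apolipoproteins are the protein coat of the particles that carry triglyceride and cholesterol in blood, and the liver makes most of them. Apob is the structural protein of very low density lipoprotein (VLDL), and stays with its particle until that is cleared. Apoa1 and Apoa2 build high density lipoprotein (HDL), while the small Apoc proteins, Apoa5 and Apoe move between particles and set how fast triglyceride is removed by lipoprotein lipase or by liver receptors. Their transcription in hepatocytes depends on liver nuclear receptors and other liver factors, among them HNF4A.

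The libraries held between 13142588 (PA replicate 1) and 60046937 (LA+NTP replicate 2) expected counts, and each library is named by the replicate number of its label. Nothing in the sources says that the 2 libraries of a group came from separate animals or cultures, so p-values measure the spread between these libraries, which may be technical. Libraries of PA and LA stood apart from the others in how gene level went with the GC content of transcripts. Spearman's rho between GC content and a gene's level relative to its mean over libraries lay between -0.561 and -0.465 in the 4 libraries given an FFA alone, and between 0.337 and 0.558 in the 6 others. Beside comparisons between those 2 sets of libraries, values refitted with the trend removed are given. PA against LA, and likewise PA+NTP against LA+NTP, set libraries of like trend side by side. Alb (albumin) was listed at 1929 to 2818 FPKM and Ttr (transthyretin) at 23.0 to 79.3 FPKM over the 10 libraries. Both hepatocyte markers were thus present in each. Other hepatocyte markers ranged from Hpx at 4420 to 5551 FPKM down to Pck1 at 0.19 to 0.42. Cps1 at 1.52 to 4.61 FPKM and Tat at 3.64 to 8.51 were also low.

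In the GENCODE M21 annotation of GRCm38, 4 of the genes form a cluster of 43.3 kb on chromosome 9. Apoa1 lies at chr9:46228580-46230466 on the plus strand, Apoc3 at chr9:46232933-46235636 on the minus strand, Apoa4 at chr9:46240696-46243459 and Apoa5 at chr9:46268633-46271919, both on the plus strand. Apoe (chr7:19696109-19699188) and Apoc1 (chr7:19689481-19692660) are neighbours on the minus strand of chromosome 7, within 9.7 kb. The remaining genes are single: Apoa2 at chr1:171225054-171226379, Apob at chr12:7977648-8016835, Apoh at chr11:108343354-108414396 and Apom at chr17:35128997-35132050. Values are counts over the exons of each gene, all protein coding. Exons of Apoa4 overlap exons of Gm10680 and Gm47528 on the opposite strand, and 64.5% of the 31-base words in Apoa4 transcripts also occur, on one strand or the other, in transcripts of those genes. The same holds for 18.4% of the words of Apoa5 with Gm47544. The sources used here do not state whether counting used strand, so reads of these overlapping pairs may not be told apart. For the other 8 genes the share was at most 0.06%.

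Promoter sequences (250 bases before and 50 after a transcript start, from RefSeq on GRCm38.p6) were at hand for 8 of the 10 genes, and not for Apoc1 and Apoc3. Those of Apoa1, Apoa2 and Apoh are shown. These genes were lower with PA than with LA, and with NTP were at least 1.5-fold lower at an edgeR adjusted p under 0.05. Windows of Apoa4, Apoe and Apom, also lower by sign in both comparisons, are not shown. That of Apob is shown because its level was nearly the same in all 5 groups. Capitals mark TATAAA, the only searched motif with a match in these 4 windows, and the Apoa1 and Apoh windows hold none.
Apoa1 promoter, chr9:46228380-46228679, plus strand: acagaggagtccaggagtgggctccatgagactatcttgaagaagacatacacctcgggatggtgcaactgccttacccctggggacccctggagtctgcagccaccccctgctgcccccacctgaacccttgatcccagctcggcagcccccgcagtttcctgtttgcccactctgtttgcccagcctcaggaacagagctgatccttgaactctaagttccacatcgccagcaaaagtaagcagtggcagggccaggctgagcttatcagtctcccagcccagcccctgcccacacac
Apoa2 promoter, chr1:171224804-171225103, plus strand: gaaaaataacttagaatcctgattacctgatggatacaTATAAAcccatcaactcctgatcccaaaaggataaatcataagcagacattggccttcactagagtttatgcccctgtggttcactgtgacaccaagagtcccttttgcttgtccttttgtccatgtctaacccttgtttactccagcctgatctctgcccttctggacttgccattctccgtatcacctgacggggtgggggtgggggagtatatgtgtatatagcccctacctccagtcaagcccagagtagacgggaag
Apoh promoter, chr11:108395047-108395346, plus strand: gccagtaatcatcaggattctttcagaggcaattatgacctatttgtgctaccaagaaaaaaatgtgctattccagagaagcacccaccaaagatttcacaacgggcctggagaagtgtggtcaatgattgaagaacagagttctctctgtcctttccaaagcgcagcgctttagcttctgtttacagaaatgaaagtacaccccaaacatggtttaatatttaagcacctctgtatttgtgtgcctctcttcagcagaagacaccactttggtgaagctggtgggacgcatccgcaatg
Apob promoter, chr12:7977427-7977726, plus strand: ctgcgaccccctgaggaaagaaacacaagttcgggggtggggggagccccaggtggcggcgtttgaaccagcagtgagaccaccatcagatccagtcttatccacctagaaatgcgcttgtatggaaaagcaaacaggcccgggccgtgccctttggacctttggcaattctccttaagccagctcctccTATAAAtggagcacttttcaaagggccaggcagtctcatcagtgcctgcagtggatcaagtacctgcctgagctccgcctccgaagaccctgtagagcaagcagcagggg
Both strands of the 12 promoter sequences of the 8 genes were searched. TATAAA was found in the Apoa2 window shown, Apob, 1 of 3 Apoe windows and both Apoa5 windows, against 13.6% of all 32851 promoters. A further Apoa2 window held none, and the Apoa5 windows overlap and share the same site. In Apob, TATAAA began 60 bases before the RefSeq start of its window, and in Apoa2 212 bases before. RefSeq starts can differ from the GENCODE gene positions given above. That of the Apob window is base 30 of a GENCODE transcript, so the Apob site lies nearer to the GENCODE start. The Apoa1 window starts at base 51 of such a transcript, and the Apoh window lies inside the GENCODE span of its gene. No member window held the HNF4 motif CAAAGTCCA (0.475% of all promoters) or a direct repeat of the nuclear receptor half-site with 1 base between (0.801%). A missing match says only that these letters were not in the window.

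In Vehicle cells, levels on the FPKM scale (fragments scaled for transcript length and library depth) differed widely between genes. Apoe led at 2259 ± 189 (SD, n = 2), rank 19 of all genes. It was followed by Apoa1 at 494 ± 75.7, Apob at 312 ± 17.3, Apoc1 at 260.3 ± 28.4 and Apoa2 at 166 ± 9.73. Below these came Apoa4 at 95.8 ± 6.22, Apoc3 at 71.9 ± 3.51, Apoh at 36.1 ± 2.36 and Apom at 29.5 ± 2.67. Apoa5 was the lowest at 1.60 ± 0.262 FPKM, with 78 and 88 expected counts. Along this order, the 2 libraries of each gene did not overlap those of the next. On FPKM, replicate 1 lay above replicate 2 in all 5 groups for 6 of the 10 genes (Apoa1, Apoa2, Apoa5, Apoc3, Apoh and Apom) and below it in all 5 for Apob and Apoa4, a single sign in 8 of 10 genes against 9.62% of all genes tested. Libraries of the same number thus deviated in the same direction for most of these genes, and the source of this was not tested. In bulk RNA, fewer hepatocytes and less RNA per hepatocyte cannot be told apart.

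**Figure D1:**
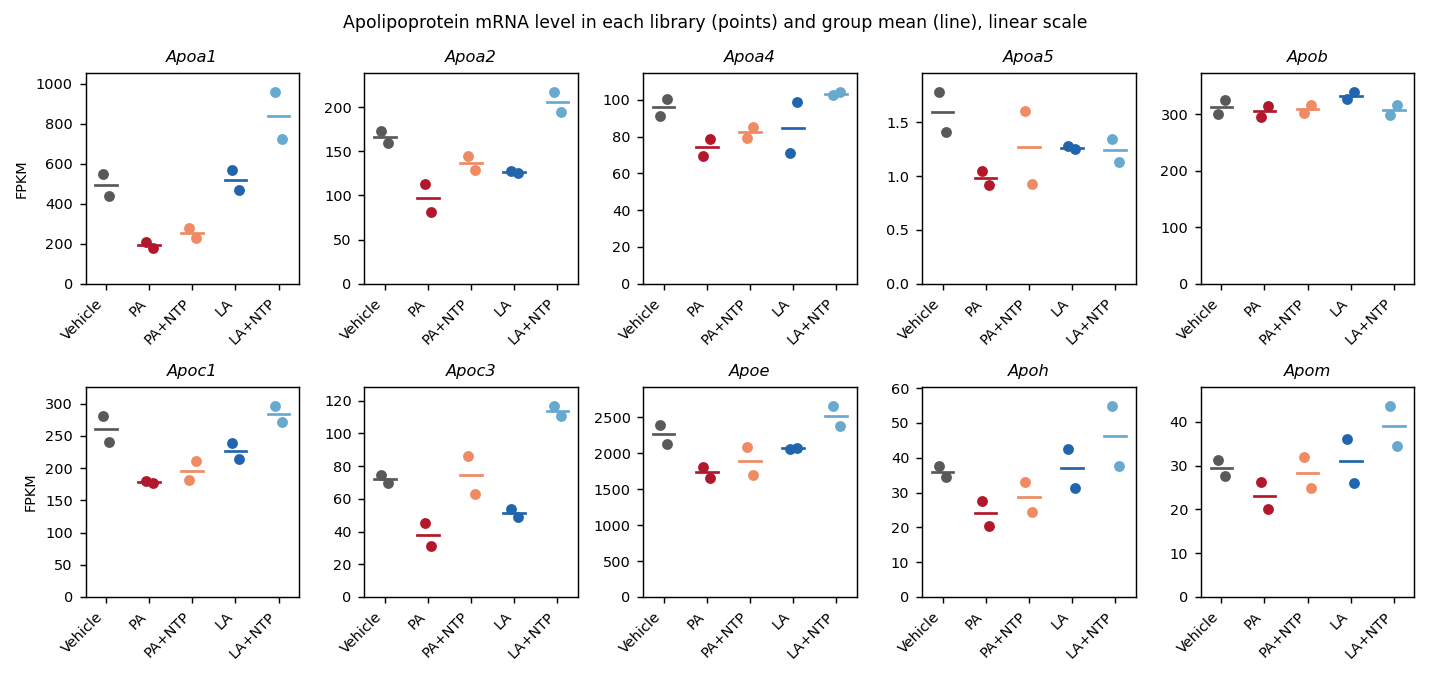
FPKM of each of the 10 genes (1 panel each, linear axis from 0) in the 5 groups; points are libraries and lines are means of 2. Apoa1 lies at 181 to 208 FPKM in PA and at 468 to 571 in LA, while Apob stays between 296 and 338 in every library.

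The HDL proteins were considered first. Apoa1, the main protein of HDL and the acceptor of cell cholesterol, was listed at 547 and 440.4 FPKM in Vehicle, 208 and 181 in PA, 276 and 231 in PA+NTP, 571 and 468 in LA, and 958 and 723 in LA+NTP. All 4 palmitate libraries lay below all 6 others, and both LA+NTP libraries lay above all 8 others. Without NTP, Apoa1 was 2.71-fold lower in PA than in LA (log2 difference -1.44 ± 0.14, SE), the widest gap among the 10 genes. Apoa2, the second HDL protein, was listed at 173 and 159 FPKM in Vehicle, 113 and 81.4 in PA, 144 and 129 in PA+NTP, 127 and 125 in LA, and 217 and 195 in LA+NTP. Here the PA libraries were the lowest and the LA+NTP libraries the highest, while the LA and PA+NTP libraries lay close to each other. The PA minus LA difference of Apoa2 was -0.42 ± 0.12. Apom, which carries sphingosine-1-phosphate on HDL, was listed at 31.4 and 27.6 FPKM in Vehicle, 26.2 and 19.98 in PA, 32.0 and 24.8 in PA+NTP, 36.1 and 26.1 in LA, and 43.7 and 34.6 in LA+NTP. The PA and LA libraries of Apom overlapped, and its difference was -0.49 ± 0.18.

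Genes that act on triglyceride-rich particles came next. Apoc3, an inhibitor of lipoprotein lipase and of particle uptake, was listed at 74.4 and 69.5 FPKM in Vehicle, 45.04 and 31.3 in PA, 86.1 and 62.8 in PA+NTP, 53.5 and 48.9 in LA, and 117 and 111 in LA+NTP. The FFA libraries without NTP were the 4 lowest, PA below LA, with a PA minus LA difference of -0.49 ± 0.16. Apoa5, which promotes lipolysis, was listed between 0.92 and 1.78 FPKM in all 10 libraries on 32 to 158 expected counts. Its difference of -0.40 ± 0.27 was imprecise at this depth. Apoc1, which restrains lipolysis and plasma lipid transfer, was listed at 280.4 and 240.2 FPKM in Vehicle, 181 and 177 in PA, 181 and 210.3 in PA+NTP, 239 and 215 in LA, and 297 and 271 in LA+NTP. The 4 palmitate libraries of Apoc1 were the 4 lowest, and its difference was -0.36 ± 0.09. Apoa4, made by the intestine and in the mouse also by the liver, was listed at 91.4 and 100.2 FPKM in Vehicle, 69.4 and 78.8 in PA, 79.01 and 85.4 in PA+NTP, 70.9 and 98.6 in LA, and 103 and 104 in LA+NTP. Its PA and LA libraries overlapped, and the difference of -0.20 ± 0.12 turned to 0.05 without LA replicate 2.

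The receptor ligands and Apoh completed the set. Apoe, the ligand by which remnants enter liver cells, was listed at 2393 and 2126 FPKM in Vehicle, 1813 and 1654 in PA, 2085 and 1693 in PA+NTP, 2059.7 and 2070.0 in LA, and 2659 and 2372 in LA+NTP. Both PA libraries of Apoe lay below both LA libraries, and the PA minus LA difference was -0.26 ± 0.09. Apob was listed at 299.8 and 324 FPKM in Vehicle, 296 and 314 in PA, 302 and 317 in PA+NTP, 326 and 338 in LA, and 298 and 316 in LA+NTP. The highest library of Apob was 1.14 times its lowest, the least of the 10 genes, against 5.30 times for Apoa1, and the PA minus LA difference was -0.14 ± 0.06. Apoh, the phospholipid-binding beta-2-glycoprotein I, was listed at 37.7 and 34.4 FPKM in Vehicle, 27.6 and 20.4 in PA, 32.9 and 24.3 in PA+NTP, 42.6 and 31.4 in LA, and 55.0 and 37.6 in LA+NTP. Its difference of -0.68 ± 0.20 was the second widest.

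By sign, the 10 genes were lower in PA than in LA without exception, with a median difference of -0.41 where the median of all 14097 genes tested was 0.01. In 8 of the 10 the PA and LA libraries did not overlap, the PA libraries being lower, as was the case in 22.5% of all genes tested. Removing the GC trend left a median of -0.41. Because the genes were chosen on this difference, no test of it is given. The same question was therefore put to the NTP-treated libraries.

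With NTP present in both groups, 4 of the 10 genes were lower in PA+NTP than in LA+NTP by the call used throughout (Benjamini-Hochberg adjusted p under 0.05 in edgeR's quasi-likelihood test and a fold of at least 1.5), where 2.45% of all genes tested were called lower. These libraries did not enter the PA and LA fold change, although the fit shared 1 estimate of spread over all groups and results from them were also known when the genes were chosen. The groups were not equally noisy. Chi-square per gene between the 2 libraries, which also grows with depth, was 16.35 in PA+NTP and 8.92 in LA+NTP. In Vehicle, PA and LA it was 3.81, 6.83 and 6.16, so the shared estimate may understate the spread in this comparison. Apoa1 was 3.39-fold lower (log2 fold change -1.76 ± 0.14, edgeR adjusted p = 3.68e-06) and was called in all 21 alternative fits. Apoa2 was 1.54-fold lower (-0.62 ± 0.11, edgeR adjusted p = 0.00196), Apoc3 1.56-fold lower (-0.64 ± 0.14, edgeR adjusted p = 0.00584) and Apoh 1.65-fold lower (-0.72 ± 0.18, edgeR adjusted p = 0.0177). The median of the 10 genes was -0.53, against 0.01 over all genes tested.

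Calls other than that of Apoa1 lay near the fold of 1.5 or rested on single libraries. Apoa2 stood at 1.48-fold without PA+NTP replicate 2 and at 1.46-fold without LA+NTP replicate 1. For Apoc3 the fold without PA+NTP replicate 2 was 1.37, and for Apoh the edgeR adjusted p rose to 0.116 without PA+NTP replicate 2 and to 0.204 without LA+NTP replicate 1. Over its 21 alternatives the adjusted p of Apoh went up to 0.204, and the call passed in 15, not under DESeq2 (0.0739), with only the groups compared (0.0716) or under limma (0.0764 and 0.0814). With the GC trend removed, Apoa2 and Apoc3 both stood at 1.49-fold, just under the fold used.

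By adjusted p alone, 7 genes were lower in PA+NTP than in LA+NTP, where 7.77% of all genes tested were. The additional genes were Apoc1 (-0.56 ± 0.09, edgeR adjusted p = 0.000956), Apoe (-0.44 ± 0.09, edgeR adjusted p = 0.00468) and Apoa4 (-0.36 ± 0.11, edgeR adjusted p = 0.0463). Apom showed a value of -0.49 ± 0.16 and missed the threshold at an edgeR adjusted p of 0.0589. Apob stood at -0.02 ± 0.06 and Apoa5 at 0.01 ± 0.25, and the signs of both turned with the processing. Apoa4 passed the adjusted p in 10 of 21 alternatives. It did not pass under library-size scaling, DESeq2, either limma fit or with the GC trend removed (0.0604 to 0.15), nor without either Vehicle or LA+NTP library, PA replicate 2 or PA+NTP replicate 1 (0.0511 to 0.189). Apoe passed in 17 of 21, and not under either limma fit, with only the groups compared or without LA+NTP replicate 1 (0.0525 to 0.0614). Apoc1 was called without PA+NTP replicate 2 or LA+NTP replicate 2, and Apom without PA+NTP replicate 1 or LA+NTP replicate 2. Libraries of 8 genes did not overlap between the groups, PA+NTP being lower, against 23.4% of all genes tested, and those of Apoa5 and Apob overlapped.

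**Figure D2:**
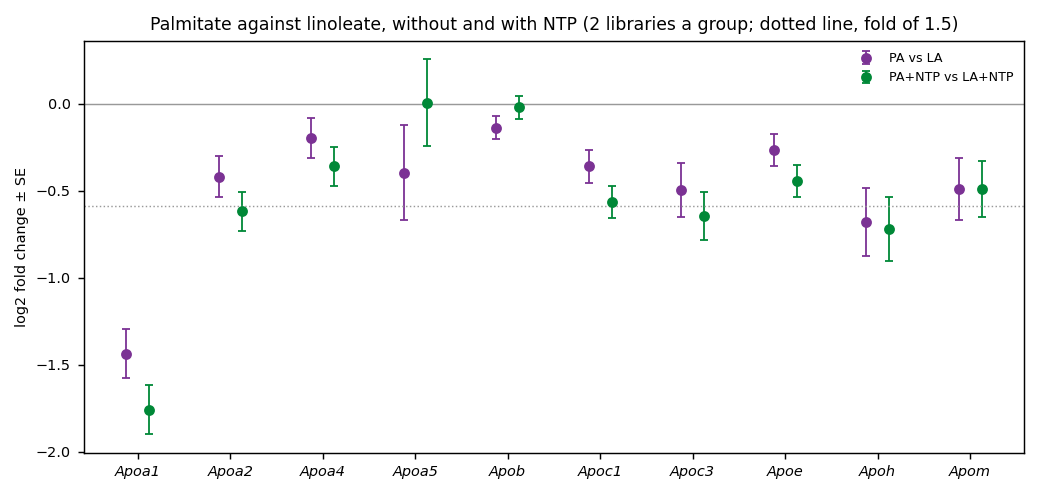
Log2 fold change with its SE (edgeR, 2 libraries a group) for each gene, PA against LA and PA+NTP against LA+NTP. Apoa1 is the lowest in both at -1.44 and -1.76, and Apob lies at -0.14 and -0.02; the first comparison is a description only.

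Each FFA was also compared with Vehicle. These comparisons reuse the PA or LA libraries on which the genes were chosen. In PA, 4 genes fell against Vehicle, where 8.92% of all genes tested were called lower: Apoa1 by 1.32 on the log2 scale, Apoc3 by 0.93, Apoa2 by 0.77 and Apoh by 0.59, with edgeR adjusted p-values of 6.38e-06, 0.000224, 0.00012 and 0.0262. By adjusted p alone, 7 genes were lower against 22.0% of all genes tested, with Apoc1 (-0.51), Apoe (-0.35) and Apoa4 (-0.33) added. Apob stood at -0.0001 ± 0.06. In LA, no gene was called, while 10.6% of all genes tested were called in either direction. DESeq2, both limma fits and the NOISeq rule also called none, and 2 genes were under an unadjusted p of 0.05. Both also passed the adjusted p, where 20.5% of all genes tested were lower. These were Apoa2 (-0.35 ± 0.11, edgeR adjusted p = 0.0236) and Apoc3 (-0.44 ± 0.15, edgeR adjusted p = 0.0263), and neither passed without either LA library or Vehicle replicate 1, nor Apoc3 without Vehicle replicate 2, at adjusted p-values from 0.0654 to 0.152. Over the 21 alternatives Apoa2 passed in 16 and Apoc3 in 14. Apoa1 in LA stood at 0.12 ± 0.14 against Vehicle.

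Values against Vehicle moved when the GC trend was removed, since PA and LA libraries differ from Vehicle in that trend. In PA the calls of Apoa1 (-0.98), Apoa2 (-0.63), Apoc3 (-0.64) and Apoh (-0.59) held, at edgeR adjusted p-values of 0.000139, 0.00137, 0.0055 and 0.0356. Apoe in PA moved from -0.35 to 0.10, Apoa4 from -0.33 to 0.03 and Apoc1 from -0.51 to -0.25, and none of these 3 then passed. Apob in PA moved from -0.0001 to -0.20 and passed as lower (edgeR adjusted p = 0.0324). In LA, Apoe moved from -0.08 to 0.40 (edgeR adjusted p = 0.0071) and Apoa1 from 0.12 to 0.48 (edgeR adjusted p = 0.0242), while Apoa2 and Apoc3 no longer passed. The Apoh call in PA did not hold without PA replicate 2 (-0.34, edgeR adjusted p = 0.317) or without either Vehicle library, with an adjusted p of 0.128 without replicate 1 and 0.0608 without replicate 2. It stood just under the fold of 1.5 without either LA+NTP library (1.499), and did not pass under DESeq2 (0.118) or limma on log2(FPKM + 1) (0.0547). Apoa5 (-0.67, edgeR adjusted p = 0.0597) was called in 7 of 21 alternatives, 2 of which each left out a PA+NTP library, and Apoc1 without Vehicle replicate 2 (-0.62). Without PA replicate 2, the Apoa2 fold was 1.43. By adjusted p alone, Apoa4 did not pass without either Vehicle library or PA replicate 1, nor Apoe without Vehicle replicate 1 or PA replicate 2, at 0.0503 to 0.182. Over the 21 alternatives Apoa4 passed in 15, Apoe in 17 and Apoc1 in 19.

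NTP was then compared with the same FFA alone, in fits that again reuse the PA and LA libraries. Apoc3 rose under both FFAs: 1.94-fold in PA+NTP over PA (log2 fold change 0.96 ± 0.15, edgeR adjusted p = 0.000158) and 2.16-fold in LA+NTP over LA (1.11 ± 0.14, edgeR adjusted p = 1.57e-05). It was the 1 gene of 10 called higher with PA, where 8.74% of all genes tested were. In LA+NTP, Apoa1 (0.65 ± 0.14, edgeR adjusted p = 0.00105) and Apoa2 (0.66 ± 0.11, edgeR adjusted p = 0.000186) rose as well, making 3 of 10 against 11.7% of all genes tested. With the GC trend removed, Apoc3 was still called at 0.64 and 0.71, but Apoa1 in LA+NTP dropped to 0.20 (edgeR adjusted p = 0.304) and Apoa2 to 0.48, under the fold of 1.5. Apoa1 in LA+NTP also fell under the fold without LA replicate 2 (1.42-fold) or LA+NTP replicate 1 (1.35-fold).

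By adjusted p alone, 2 genes were higher in PA+NTP than in PA, where 21.7% of all genes tested were, and 5 in LA+NTP than in LA, where 25.9% were. In PA+NTP the added gene was Apoa2 (0.46 ± 0.12, edgeR adjusted p = 0.00505), which was called without PA replicate 1 and did not pass without PA replicate 2 (edgeR adjusted p = 0.135) or with the GC trend removed (0.31, edgeR adjusted p = 0.0684). With that trend removed, Apoe in PA+NTP against PA moved from 0.06 to -0.41 and passed as lower (edgeR adjusted p = 0.0035), and Apoa1 moved from 0.33 to -0.03. In LA+NTP they were Apoc1 (0.28 ± 0.09) and Apoe (0.24 ± 0.09), both of which changed sign with the GC trend removed, Apoe to -0.37 with an edgeR adjusted p of 0.00639. Apoc1 did not pass without LA replicate 2 or LA+NTP replicate 1, nor Apoe without either LA library or LA+NTP replicate 1. Over the 21 alternatives Apoc1 passed in 17 and Apoe in 16, in 2 of these as lower.

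**Figure D3:**
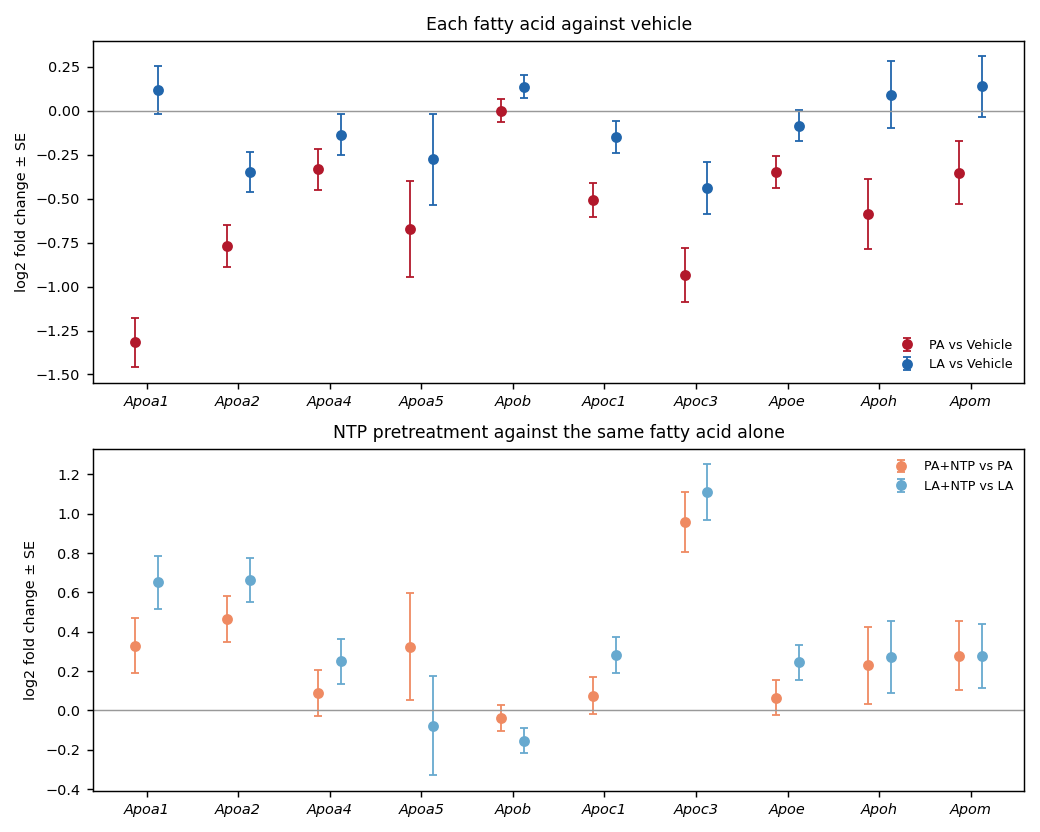
Log2 fold change with its SE (edgeR, 2 libraries a group): top, PA and LA against Vehicle; bottom, NTP with an FFA against that FFA alone. PA points of Apoa1, Apoa2, Apoc3 and Apoh lie lowest among the calls at -1.32, -0.77, -0.93 and -0.59, and Apoc3 is highest with NTP at 0.96 and 1.11.

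The NTP effect itself was compared between the FFAs. None of the 10 genes differed, and none of the 14097 genes tested did at an edgeR adjusted p under 0.05, while 1029 genes and none of the 10 had an unadjusted p under 0.05. DESeq2 and both limma fits also called none of the 10. The difference for Apoa1 was -0.32 ± 0.19 and for Apoc3 -0.15 ± 0.21 (PA minus LA, log2), so gaps of such size between the NTP effects are not shown by these libraries, nor is their absence.

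Comparisons of NTP-treated cells with Vehicle took their fold changes from no PA or LA library, although those libraries entered the estimate of spread that the 5 groups share. In PA+NTP, Apoa1 was 1.98-fold below Vehicle (log2 fold change -0.99 ± 0.14, edgeR adjusted p = 0.000453), the 1 gene of 10 called, where 1.64% of all genes tested were called lower. Apoa1 kept this call in all 10 fits that each left out 1 library. By adjusted p alone Apoc1 was added (-0.43 ± 0.09, edgeR adjusted p = 0.00889), with 5.61% of all genes tested lower, though not without Vehicle replicate 1 (0.136) or PA+NTP replicate 1 (0.0557). Apoc3 in PA+NTP stood at 0.02 ± 0.14 against Vehicle. In LA+NTP, Apoa1 was 1.71-fold above Vehicle (0.77 ± 0.14, edgeR adjusted p = 0.0421), where 0.0567% of all genes tested were called higher. That call did not pass under limma, with the GC trend removed (edgeR adjusted p = 0.0852), or without either Vehicle library, either LA library or LA+NTP replicate 1, where the adjusted p ran from 0.0724 to 0.405. Apoc3 was at 0.67 ± 0.14 with an edgeR adjusted p of 0.0581, and was called in 9 of 21 alternatives, among them those without any one of the 4 palmitate libraries (0.0122 to 0.0486).

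**Figure D4:**
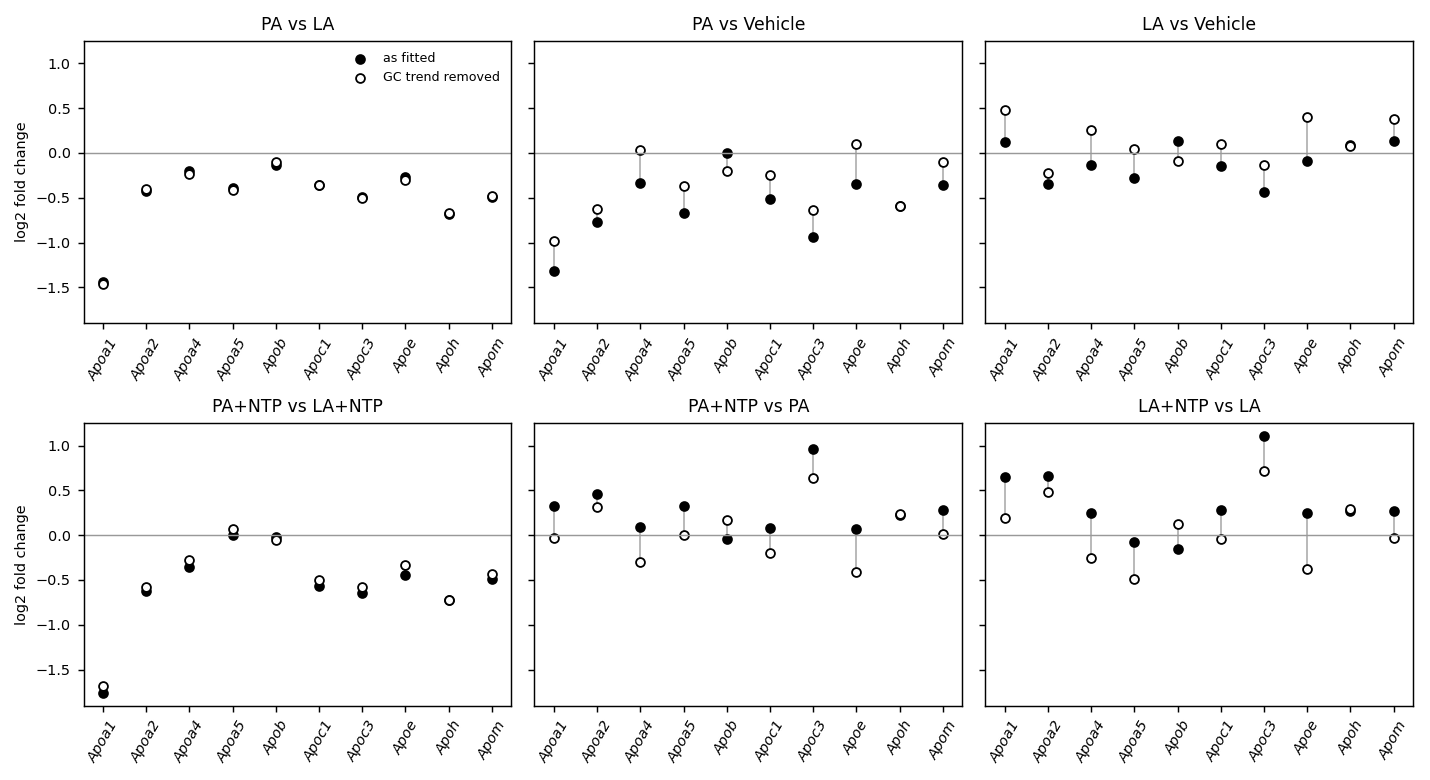
Log2 fold change of the 10 genes in 6 comparisons as fitted (filled) and with the GC trend removed (open). Shifts are small for PA against LA, while in PA+NTP against LA+NTP Apoe moves from -0.44 to -0.34 and calls go from 4 to 2; Apoe moves from -0.35 to 0.10 in PA against Vehicle and from 0.24 to -0.37 in LA+NTP against LA.

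The GC content of the 10 genes ran from 43.5% in Apob to 59.5% in Apoe, against a median of 49.5% over all genes tested, and 8 of the 10 exceeded that median. Together the 10 genes took 0.6984% to 0.6997% of expected counts in the PA libraries, 0.813% to 0.825% in Vehicle, 0.815% to 0.824% in LA, 0.721% to 0.754% in PA+NTP and 0.868% to 0.905% in LA+NTP. Apoe and Apob made up most of this share. On summed FPKM, which gives short transcripts more weight, the share was 0.513% to 0.549% in PA and 0.689% to 0.703% in LA. On both scales the LA+NTP libraries lay above all others, and on the share of counts the PA libraries lay below all others, while on summed FPKM PA+NTP replicate 2 (0.539%) fell between the PA libraries.

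Other genes of the lipoprotein pathway were taken from lists of 79 genes, of which 78 were tested. In PA+NTP against LA+NTP, 11 of them were called, 9 lower and 2 higher, against 2.45% and 1.38% of all genes tested. In VLDL assembly and secretion, 5 of 17 were lower. Tm6sf2 (-0.93 ± 0.22, edgeR adjusted p = 0.00996) takes part in the lipidation of VLDL. A1cf (-0.75) is the partner of the Apob mRNA editing enzyme, and Aadac (-0.74) is a lipase of the endoplasmic reticulum. Pla2g12b (-0.72), needed for VLDL lipidation, and the sorting receptor Sort1 (-0.60) were the others. Mttp, which loads lipid onto Apob, stood at -0.25 ± 0.08 and did not pass.

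Of the 10 other apolipoproteins tested, 1 was lower, Apoc4 (-0.85 ± 0.11, edgeR adjusted p = 0.000174), a neighbour of Apoe and Apoc1 in the genome, and 2 were higher, Apol9b and Apol9a (both 0.73), near-identical copies between which counts are uncertain. Of 9 lipoprotein receptors, 4 passed the adjusted p, all lower and all under the fold of 1.5, Lrp1, which takes up remnants, among them (-0.45, edgeR adjusted p = 0.000298). Of 26 regulators, 2 were lower, the liver factors Foxa3 (-0.90 ± 0.10, edgeR adjusted p = 3.8e-05) and Hnf4a (-0.60 ± 0.06, edgeR adjusted p = 3.64e-05). Sort1, Mttp, Apol9a and Hnf4a were named after their values were seen, and the others by rule.

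**Figure D5:**
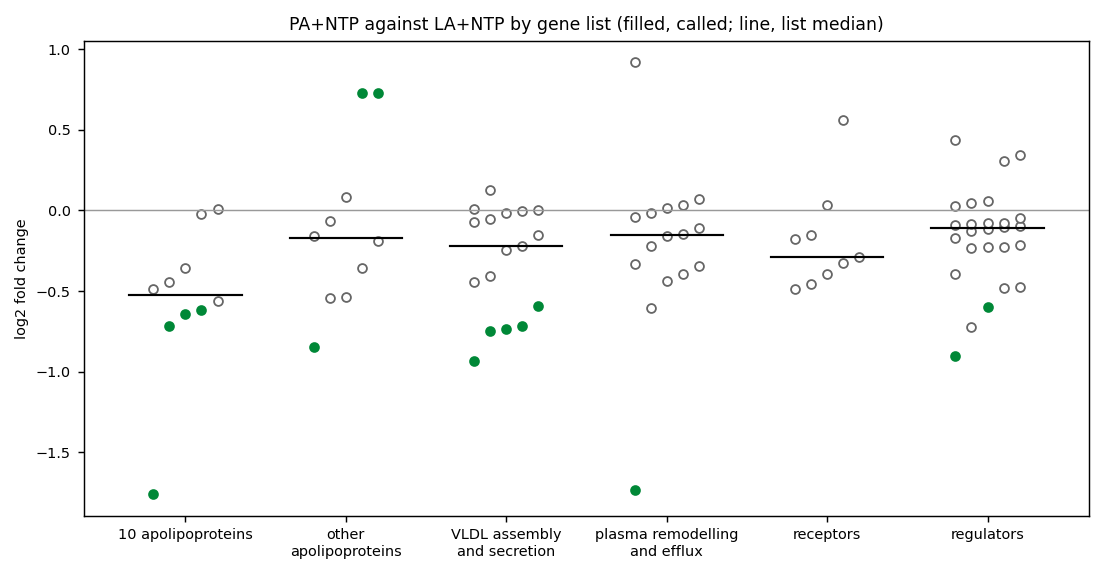
Log2 fold change of PA+NTP against LA+NTP (edgeR) for the 10 genes and 5 lists of the lipoprotein pathway; each point is a gene, filled where called, and lines are list medians. The medians are -0.53 for the 10 genes and -0.17, -0.22, -0.15, -0.29 and -0.11 for the lists, from left to right.

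Against Vehicle, 19 of the 78 genes were called in PA, 2 higher and 17 lower (6.00% and 8.92% of all genes tested), and 10 in LA, 1 higher and 9 lower (3.53% and 7.11%). With the GC trend removed these counts were 11 and 3. Apoc2, the activator of lipoprotein lipase, was lower with both FFAs (-1.59 in PA, -1.40 in LA) and stayed called with the trend removed (-1.28 and -1.06). Tm6sf2 fell by 1.76 on the log2 scale in PA and Nr0b2, a nuclear corepressor, by 1.78. Vldlr, a receptor for triglyceride-rich particles, rose by 1.29 in PA. Levels of these genes were low. Mean FPKM in Vehicle and in PA was 2.495 and 0.725 for Tm6sf2, 1.365 and 0.355 for Nr0b2, and 0.345 and 0.85 for Vldlr. Clu, the apolipoprotein also called clusterin, was lower in PA (-0.76), as were Lrp1 (-0.93), Foxa3 (-0.83), Pltp (-0.62), Angptl8 (-0.89) and Abcg1 (-0.83), and each of these 6 lost the call with the trend removed. Abcg1 was low as well, at a mean of 0.535 FPKM in Vehicle and 0.29 in PA. Nr1d1, a clock repressor, was lower in PA (-0.98) and remained called at -0.65 with the trend removed.

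Across the 10 libraries, the level of Apoa1 (log2 CPM) ran most closely with Serpina1a, a secreted protease inhibitor (Pearson's r = 0.993), and with Bcar3 (0.992), among 11106 genes with a mean of at least 1 FPKM. For Apoh they were Car3 (0.975) and Rdh7 (0.97), and for Apoc3 Gstm3 (0.989) and Rarres2 (0.972). Within the set, Apoa1 went with Apoe (0.938), Apoc1 (0.924) and Apoh (0.92), Apoa2 with Apoc3 (0.949), and Apoh with Apom (0.963), while Apob had values between -0.431 and 0.176 with the other 9. These are descriptions over 10 libraries that share 5 treatments and the GC trend.

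Some markers of liver cells also differed between the FFAs. Among 10 hepatocyte markers, 4 were called lower in PA+NTP than in LA+NTP, where 2.45% of all genes tested were. These were Ttr (-0.92), Cps1 (-0.93), Serpina1c (-0.85) and Tat (-0.78), while Alb stood at -0.22 ± 0.07 and Trf at -0.04 ± 0.07. The summed level of the 10 markers was 10810 to 11680 FPKM in PA and 12080 to 12240 in LA. It was 11630 to 13640 in PA+NTP and 12750 to 13550 in LA+NTP, which overlapped. Of 8 Kupffer cell markers, 7 were tested. Marco (2.22) and Adgre1 (1.41) were called higher and Cd5l (-0.78) lower in PA+NTP than in LA+NTP. Over all genes tested, 1.38% were called higher and 2.45% lower. The Kupffer cell markers summed to 14.8 to 15.2 FPKM in Vehicle, 20.1 to 23.0 in PA and 21.2 to 25.6 in PA+NTP. In LA they summed to 17.83 to 17.85 and in LA+NTP to 17.4 to 17.9. Clec4f was at most 0.29 and Vsig4 at most 0.30 FPKM in any library. Most of this sum was Lyz2, at a mean of 9.48 FPKM in Vehicle and 15.2 in PA. By mean FPKM, Marco, Adgre1 and Csf1r were also higher in PA than in Vehicle, while Cd5l, C1qa, Clec4f and Vsig4 were lower. Endothelial markers summed to 38.22 to 38.26 FPKM in Vehicle, 28.3 to 29.6 in PA, 30.2 to 34.7 in PA+NTP, 29.4 to 32.4 in LA and 38.8 to 41.4 in LA+NTP. Stellate markers summed to 17.7 to 18.3, 15.8 to 17.0, 16.9 to 19.2, 17.8 to 18.8 and 18.2 to 18.7 FPKM in the same order. Cholangiocyte markers, nearly all of it Spp1, summed to 583 to 616, 406.5 to 529, 569 to 704, 637 to 678 and 664 to 693 FPKM. Leukocyte markers summed to at most 0.77 FPKM, and Cd3e and Cd3g were listed at 0 or at no more than 0.06. The part of these markers in the results was not tested.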

How the data were processed

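RNA from primary mouse hepatocytes was sequenced in 10 libraries, 2 for each of 5 groups. The authors aligned reads with HISAT and Bowtie2 and quantified genes with RSEM (versions not given in the sources used here), on build mm10 according to the submitters' processing notes. The deposited expected counts are RSEM estimates per gene, not scaled between libraries, and summed to 13142588 to 60046937 a library. Counts bound the precision of low genes such as Apoa5 most. The deposited FPKM values, called RPKM in the authors' methods, were scaled for gene length and depth, and only genes at 0.01 FPKM or more are listed in a library, so an unlisted gene was taken as 0.

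Of 18055 gene IDs, 17998 matched RefSeq (GRCm38.p6) by ID and 11 by accession. Expected counts were rounded and fitted in edgeR 4.0.16 (R 4.3.3) using TMM scaling, filterByExpr, a single factor of 5 groups and quasi-likelihood F tests. Low-count filtering kept 14097 genes, among them all 10 apolipoproteins. P-values were adjusted over all genes tested, and calls needed an adjusted p under 0.05 and a fold of at least 1.5. The pipeline was tested on simulated data. These had changes well above 1.5-fold, the same spread in every group and no GC trend, so they do not bear on calls near that fold. Alternatives were DESeq2 1.42.0, limma 3.58.1 on log2(FPKM + 1) and log2(FPKM + 0.1), library-size scaling, no low-count filter, a mean of at least 1 FPKM, only the groups compared, a loess GC trend removed, replicate blocks, a reimplementation of the authors' NOISeq rule (probability of at least 0.95), and each library left out.

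The genes, the lists and the tests were chosen with earlier results of these data known. Genes named from a list are the called ones in PA vs Vehicle, LA vs Vehicle or PA+NTP vs LA+NTP, at most 4 a list by largest change, plus Alb, Ttr and, for the 3 members with the widest PA and LA gap, the 2 best correlated genes. With 2 libraries a group, an exact permutation test cannot go below p = 0.333, so none was run. Some genes of these lists are not reported here.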

Additional observations from a re-analysis of the deposited data

How the results depend on the processing

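The results were refitted under 21 alternatives, 10 of which leave out 1 library each. In PA+NTP against LA+NTP the count of apolipoproteins called was 4, 2 with the GC trend removed, 7 by adjusted p without a fold threshold, 1 under the NOISeq rule, and 2 to 6 with a library left out. In PA against Vehicle it was 4, 7 without a fold threshold, 1 under the NOISeq rule, and 2 to 5 with a library left out. In LA against Vehicle it was 0 and 2 without a fold threshold, and 0 whichever library was left out. In PA+NTP against PA it was 1, with 2 without a fold threshold, 0 under the NOISeq rule and 1 to 2 with a library left out. In LA+NTP against LA it was 3, with 1 once the GC trend was removed, 5 without a fold threshold, 1 under the NOISeq rule and 2 to 3 with a library left out. In PA+NTP against Vehicle it was 1 and 2 without a fold threshold. In LA+NTP against Vehicle it was 1, with 2 under DESeq2, without a low-count filter or with only the groups compared, 0 under both limma fits, the NOISeq rule or with the GC trend removed, and 0 to 2 with a library left out.

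For the other lipoprotein genes, the 11 calls in PA+NTP against LA+NTP became 7 under both limma fits, 24 without a fold threshold, 1 under the NOISeq rule and 8 to 14 with a library left out. The 19 in PA against Vehicle became 11 with the GC trend removed, 42 without a fold threshold, 1 under the NOISeq rule and 16 to 20 with a library left out. The 10 in LA against Vehicle became 3 with the GC trend removed, 42 without a fold threshold, 1 under the NOISeq rule and 8 to 9 with a library left out. The larger counts without a fold threshold follow from dropping it. The cause of the other shifts was not tested. The NOISeq rule was not run for the difference between the NTP effects, where the count stayed 0 under each alternative run.

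The median PA and LA difference of the 10 genes was -0.41, and -0.56 to -0.28 with a library left out, the widest without PA replicate 1. Apoa4 in PA against LA ran from -0.42 to 0.0489 with a library left out. Reversals in PA+NTP against LA+NTP touched values near 0: Apoa5 to -0.009 under limma with 0.1 added, -0.0219 with a replicate block and -0.18 with a block by file number, and -0.41 to 0.33 with a library left out, and Apob to 0.0089 under library-size scaling, 0.0095 under both limma fits and -0.0781 to 0.0434 with a library left out. The GC trend removal turned the sign of 2 genes in PA against Vehicle, 5 in LA against Vehicle, 6 in PA+NTP against PA, 5 in LA+NTP against LA, 1 in LA+NTP against Vehicle and 0 in PA against LA or PA+NTP against LA+NTP. Among those past the adjusted p before, it reversed Apoa4 (0.0319) and Apoe (0.10) in PA against Vehicle, and Apoc1 (-0.0457) and Apoe (-0.37) in LA+NTP against LA.

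The replicate numbers did not meet the rule for pairing, a correlation over 0.1 in every pair of groups: differences between replicates correlated between groups at -0.069 to 0.127 over all genes, although 8 of the 10 apolipoproteins differed between numbers with 1 sign in every group. By file name the numbers were 1 and 3 in PA and PA+NTP, and 2 and 3 in Vehicle, LA and LA+NTP. Only replicate 1 of PA and of PA+NTP has the same number in label and file name. File number 1 thus occurs only in palmitate groups. With the replicate number as a block, the count in LA+NTP against Vehicle was 2, also with a block by file number. With the block and the GC trend removed together, the other lipoprotein genes called numbered 11 in PA against Vehicle and 3 in LA against Vehicle, the apolipoproteins called in LA+NTP against LA numbered 1, and the reversed values were 0.0272 for Apoa4, 0.10 for Apoe, -0.045 for Apoc1 and -0.38 for Apoe in the same comparisons. With the block, Apoh in PA against Vehicle stood at -0.58, just under the fold used. The block moved no other count by over 1.5 times. Depth limits mostly Apoa5, with 32 to 158 expected counts.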
